A study of Mus musculus with 3 samples.

Results

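The interferon regulatory factors are a family of transcription factors, and 8 of their genes were followed here: Irf1, Irf2, Irf3, Irf4, Irf5, Irf7, Irf8 and Irf9. They were picked by symbol from the 23282 gene entries of each library, and all 8 had reads in every library. The libraries came from 3 vehicle samples of bone marrow from male wild type C57BL/6 mice, 6 weeks old, that received sterile water by oral gavage for 28 days and were harvested on day 29. Red blood cells were lysed and RNA was sequenced from the polyadenylated end of transcripts with the Lexogen QuantSeq kit. The series also concerns mice given the herbal drug Asari Radix et Rhizoma, and those samples were not analysed here. Nothing in the labels states whether each library is a mouse of its own, so p-values measure only the spread between these samples, which may be technical.

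All members share an amino-terminal DNA-binding domain that recognises GAAA repeats, the core of the interferon-stimulated response element (ISRE). Irf3 and Irf7 encode the factors that switch on type I interferon genes once the kinases TBK1 and IKKε have phosphorylated them, and Irf9 encodes the DNA-binding part of ISGF3, the complex that carries the interferon receptor signal to the nucleus. Irf1 encodes an inducible activator and Irf2 a factor that competes for the same sites. Irf5 acts behind Toll-like receptors in myeloid cells. Irf4 and Irf8 are blood-lineage factors that bind with the ETS factor encoded by Spi1 at composite sites. IRF8 directs monocyte and dendritic cell development and restrains neutrophil production, and IRF4 is needed for plasma cells.

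The promoters of Irf1, Irf2 and Irf8 are shown because they hold matches to the elements through which interferon and its own factors act. Each window runs from 250 bases before the annotated gene start to 50 bases after it, from RefSeq on GRCm38.p6, 5′ to 3′ on the plus strand, with motif matches in capitals. Irf1 lies at chr11:53769764-53770063, Irf2 at chr8:46739495-46739794 and Irf8 at chr8:120736108-120736407.
Irf1: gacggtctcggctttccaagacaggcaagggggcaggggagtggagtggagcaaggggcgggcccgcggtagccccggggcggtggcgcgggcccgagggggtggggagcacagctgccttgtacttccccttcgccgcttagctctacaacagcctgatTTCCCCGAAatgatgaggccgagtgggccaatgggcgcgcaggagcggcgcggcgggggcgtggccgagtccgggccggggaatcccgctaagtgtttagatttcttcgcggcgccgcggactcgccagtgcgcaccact
Irf2: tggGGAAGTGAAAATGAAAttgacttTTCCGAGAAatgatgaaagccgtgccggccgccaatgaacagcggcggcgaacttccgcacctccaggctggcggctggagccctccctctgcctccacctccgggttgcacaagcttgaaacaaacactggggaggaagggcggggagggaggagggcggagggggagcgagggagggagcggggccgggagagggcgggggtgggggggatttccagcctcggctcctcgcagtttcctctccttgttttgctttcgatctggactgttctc
Irf8: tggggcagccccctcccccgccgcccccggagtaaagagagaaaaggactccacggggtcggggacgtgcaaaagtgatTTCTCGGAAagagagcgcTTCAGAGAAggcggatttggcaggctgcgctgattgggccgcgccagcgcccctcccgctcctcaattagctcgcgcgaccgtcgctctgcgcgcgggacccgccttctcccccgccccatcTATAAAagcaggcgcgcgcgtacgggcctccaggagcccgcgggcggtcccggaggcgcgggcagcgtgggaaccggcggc
The capitals in Irf1 are TTCCCCGAA, a match to the STAT-binding core TTCNNNGAA, from base -90 to -82 relative to the start. In Irf2 they are the overlapping matches GGAAGTGAAA (ETS-IRF composite, sought as GGAA, any 2 bases, GAAA) and GAAAATGAAA (ISRE core, sought as GAAA, any 2 bases, GAAA), followed by the STAT core match TTCCGAGAA. In Irf8 they are the STAT core matches TTCTCGGAA and TTCAGAGAA and a TATA box (TATAAA) from base -31 to -26.

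The motifs were sought in 11 RefSeq windows of the 8 members, on both strands except for the TATA box, which was read on the sense strand. The STAT core stood in 3 of the 11 windows and in 8.30% of 32851 windows of all genes. The TATA box stood in 3 windows, those of Irf4, Irf7 and the Irf8 window above, and in 8.32% of all windows. The ISRE core and the composite stood in the Irf2 window among members, and in 3.44% and 2.72% of all windows. The matches are descriptions of these letters, not of binding. Member windows had a median GC content of 61.0%, against 52.7% over all windows, and a median of 18 CpG dinucleotides, against 7. They ranged from 1 CpG in a window of Irf9 to 43 in the second window of Irf1.

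Libraries held 9168435, 8104828 and 9137125 gene-assigned reads in replicates 1, 2 and 3, and levels are given as reads per 1000000 of these reads (CPM). The kit gives about 1 fragment per transcript, so levels were compared between genes without dividing by length. Replicate 1 stood apart in composition: globin genes held 10.1% of its reads, against 15.1% and 15.0% in replicates 2 and 3, and its median gene lay 0.15 log2 units above the other libraries on library totals, against 0.01 with trimmed-mean (TMM) scaling. Neutrophil markers (9 of 9 with reads) summed to 86507, 67207 and 89107 CPM in replicates 1, 2 and 3. The leukocyte gene Ptprc had 642, 527 and 581 CPM in replicates 1, 2 and 3, and skeletal muscle genes summed to at most 7.77 CPM. These are bulk libraries, in which fewer cells of a type and less RNA per cell cannot be told apart.

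Irf8 and Irf2 were the most abundant members and made up 67.2% of the family's reads. The 8 genes together had 845, 835 and 750 CPM in replicates 1, 2 and 3. Exact 95% Clopper-Pearson intervals were 826 to 864, 815 to 855 and 732 to 768 CPM. Their sum averaged 810 ± 52.1 CPM (SD, n = 3) from 21366 reads. On library totals the sum was lowest in replicate 3, whose interval lay under the other intervals. With TMM scaling it was 794, 852 and 786 CPM, so replicates 1 and 3 were then close together. The highest member, Irf8, stood 26.2-fold above the lowest, Irf3.

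**Figure D1:**
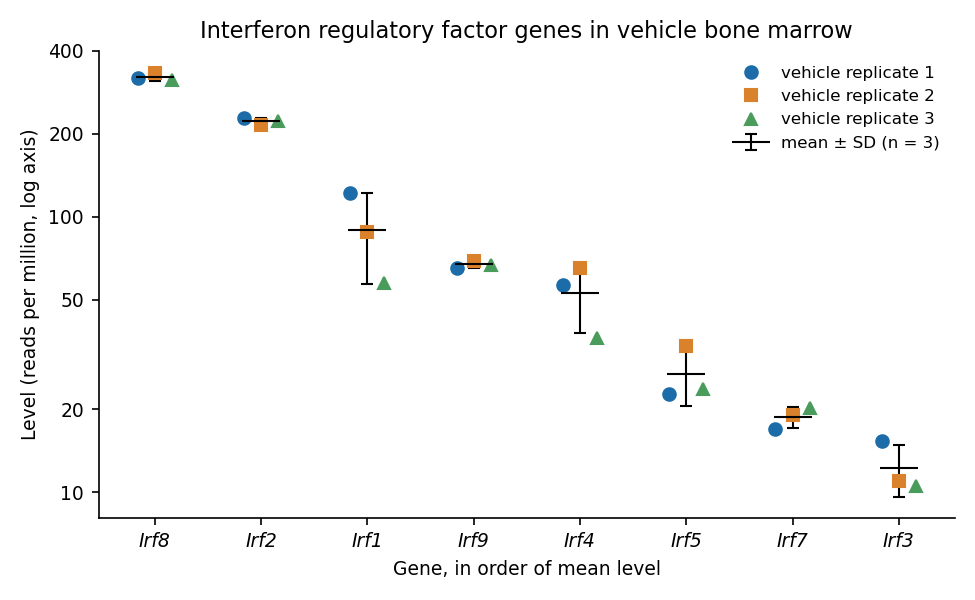
Level of each interferon regulatory factor gene in CPM (log axis), in order of mean level, with 1 point per vehicle library and a bar for the mean ± SD of 3 libraries. Irf8, Irf2 and Irf9 have points that nearly coincide, whereas Irf1 spans 57.5 to 122 CPM.

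The lineage factors were far apart in level. Irf8 (GRCm38 chromosome 8, 120736358 to 120756694) stood in replicates 1 to 3 at 318, 333 and 313 CPM, a mean of 321 ± 10.4 CPM (SD, n = 3), and ranked 276 of 16040 entries with reads. Irf4 (chromosome 13, 30749226 to 30766976) had 56.6, 65.1 and 36.2 CPM, a mean of 52.7 ± 14.9 CPM. Irf8 thus varied by 1.06-fold over the libraries and Irf4 by 1.80-fold, with replicate 3 lowest for Irf4. Within a library Irf8 had 5.61, 5.11 and 8.64 times the reads of Irf4, a mean log2 ratio of 2.65 ± 0.40 (SD, n = 3), and the interval of replicate 3 lay above the other intervals. The annotation also lists Gm20388, which spans Irf8 on the same strand, and reads of that transcript cannot be told apart from those of Irf8.

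Markers of cells that use these factors were read beside them. Monocyte markers (7 of 7 with reads) summed to 1369, 1448 and 1546 CPM in replicates 1, 2 and 3, and dendritic cell markers (8 of 8 with reads, Zbtb46 at 0 in replicate 1) to 317, 326 and 293 CPM. B cell markers (6 of 6) summed to 518, 548 and 436 CPM and were lowest in replicate 3, as Irf4 was, with Ebf1 at 158, 160 and 104 CPM. Plasma cell markers (6 of 6, Tnfrsf17 at 0 in replicate 1) summed to 180, 158 and 147 CPM. The part of these cells in the level of Irf4 was not tested.

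Among the ISRE-binding activator and its competitor, Irf2 was steady and Irf1 was not. Irf2 (chromosome 8, 46739732 to 46847458) stood in replicates 1 to 3 at 228, 216 and 222 CPM, a mean of 222 ± 6.36 CPM (SD, n = 3). Irf1 (chromosome 11, 53770014 to 53778374) had 122, 88.1 and 57.5 CPM, a mean of 89.2 ± 32.4 CPM. Replicate 1 was highest and replicate 3 lowest for Irf1, a 2.13-fold range, and its exact 95% Clopper-Pearson intervals of 115 to 130, 81.8 to 94.8 and 52.6 to 62.6 CPM did not overlap. Reads of Irf1 were 0.535, 0.408 and 0.259 times those of Irf2 in the same library, a mean log2 ratio of -1.38 ± 0.53. This ratio needs no library total, and Irf1 was below Irf2 in 3 of 3 libraries (exact two-sided sign-flip permutation p = 0.25, the smallest that 3 libraries can give). The sum of the stroma markers (4 of 4 with reads) was 244, 220 and 166 CPM in replicates 1, 2 and 3. All 4 were lowest in replicate 3, and 3 of them were highest in replicate 1, the exception being Lepr, highest in replicate 2. With TMM scaling Cxcl12 was also highest in replicate 2. The sum of the plasma cell markers, at 180, 158 and 147 CPM, fell in the same order of libraries, but its genes did not all do so. Xbp1 and Mzb1 fell in this order, whereas Jchain, the most abundant, and Prdm1 were lowest in replicate 2. Sdc1 was highest in replicate 2 and Tnfrsf17 in replicate 3. With TMM scaling 1 of the 5 tested plasma cell markers was highest in replicate 1. The part of either list in the level of Irf1 was not tested.

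The sensor-activated factors were the lowest members. Irf7 (chromosome 7, 141262706 to 141266481) stood in replicates 1 to 3 at 16.9, 19.1 and 20.1 CPM, a mean of 18.7 ± 1.65 CPM (SD, n = 3). Irf3 (chromosome 7, 44997648 to 45002848) had 15.3, 11.0 and 10.5 CPM, a mean of 12.3 ± 2.62 CPM. Irf7 was lowest in the library where Irf3 was highest, replicate 1, and the log2 ratio of Irf7 to Irf3 was 0.15, 0.80 and 0.94 there and in replicates 2 and 3. Its counting interval in replicate 1, -0.19 to 0.49, includes equal reads, so the order of these genes was not detectable in that library. Over 3 libraries the ratio averaged 0.63 ± 0.42.

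Irf9 and Irf5 lay between these groups. Irf9 (chromosome 14, 55603571 to 55610030) stood in replicates 1 to 3 at 65.2, 69.2 and 66.9 CPM, a mean of 67.1 ± 2.01 CPM (SD, n = 3). Its spread on library totals, a CV of 2.99%, was below the 4.12% that counting alone gives at its read number. Irf9 had 4.27, 6.30 and 6.36 times the reads of Irf3 in the same library. Irf5 (chromosome 6, 29526625 to 29541871) had 22.7, 33.9 and 23.7 CPM, a mean of 26.8 ± 6.21 CPM, with replicate 2 highest. The 3′ end of Irf5 lies within Tnpo3 on the opposite strand, with 1045 shared bases, and that of Irf7 within Phrf1, with 45. Since the strand setting of the counting is not given, reads of these neighbours cannot be told apart from those of Irf5 and Irf7. Irf5 had 208, 275 and 217 reads in replicates 1, 2 and 3, against 1394, 1234 and 1103 for Tnpo3. Irf7 had 155, 155 and 184 reads, against 798, 682 and 785 for Phrf1. Irf1, Irf2, Irf3 and Irf9 also overlap annotated genes, but not at their outermost annotated 3′ end, the only end that was checked. Scaf1 lies 100 bases past that end of Irf3 on the opposite strand. It had 109, 77 and 137 reads in replicates 1, 2 and 3, against 140, 89 and 96 for Irf3.

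The order of mean levels was Irf8, Irf2, Irf1, Irf9, Irf4, Irf5, Irf7, Irf3. Of the 7 neighbouring pairs, 6 had ranges over the libraries that did not overlap. The exception was Irf1 and Irf9: Irf1 was higher in 2 of 3 libraries and Irf9 in replicate 3. Irf9 and Irf4 were parted narrowly, by 65.2 CPM as the lowest value of Irf9 against 65.1 CPM as the highest of Irf4, and with TMM scaling their ranges overlapped. Dividing by the length of the longest annotated coding transcript, a choice added once the data had been seen, put Irf5 at 12.0 ± 2.77 above Irf4 at 11.1 ± 3.12 CPM per kilobase (SD, n = 3), since the Irf4 transcript is 4764 bases long and that of Irf5 2241. The other members kept their order.

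On library totals some members differed between libraries beyond counting error and others were not called. Each gene with at least 30 reads was tested for a difference between libraries: its reads in a library were set against those in the others by a two-sided exact binomial test, with Benjamini-Hochberg adjustment at 0.05 over all genes. Irf1, Irf3, Irf4 and Irf5, 4 of the 8 members, differed between libraries, where 56.5% of 11833 genes tested did. Among the 7481 genes with a mean of at least 10 CPM, a level that all members reached, the share was 65.1%. The members' count is therefore no higher than the background. Adjusted p-values of the exact test were 2.09e-36 for Irf1, 2.04e-15 for Irf4, 2.49e-05 for Irf5 and 0.0131 for Irf3, and they were 0.0964 for Irf8, 0.460 for Irf2, 0.479 for Irf7 and 1 for Irf9.

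**Figure D2:**
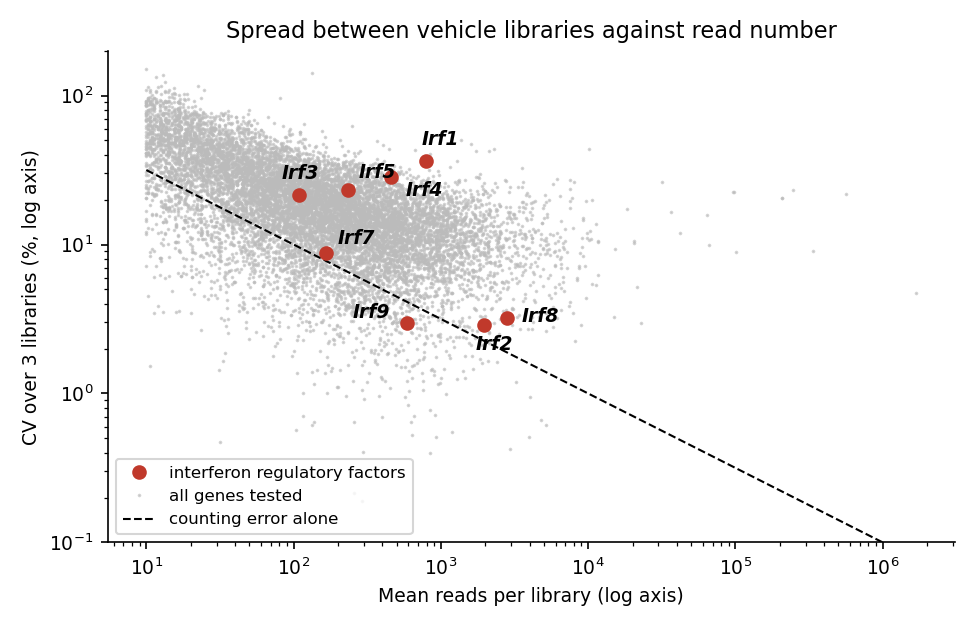
CV over 3 vehicle libraries (percent, log axis) against mean reads per library (log axis), with the 8 members as large points, all genes tested as small points and the CV from counting error alone as a dashed line. Irf1 and Irf4, at 36.3% and 28.2%, lie at the upper edge of the cloud. Irf2, Irf8 and Irf9, near 3%, lie close to the dashed line. All CVs shown are on library totals.

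The size of the spread on library totals separated the members more than the test did. The CV of Irf1 was 36.3%, 10.2 times its counting error, and 98.1% of the 7481 genes with a mean of at least 10 CPM had a smaller one. Irf4 had a CV of 28.2%, Irf5 of 23.2% and Irf3 of 21.4%. At the other end Irf2 had a CV of 2.86% and Irf8 of 3.23%, with 3.10% and 3.90% of those genes below them. Irf7 had 8.83%. Over the 8 members the median CV was 15.1%, beside 17.1% over all genes tested and 13.4% over those with a mean of at least 10 CPM.

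Which members were called depended on how libraries were scaled. With TMM scaling 5 members differed, Irf1, Irf4, Irf5, Irf8 and Irf9, where 52.0% of all genes tested did and 59.5% of those with a mean of at least 10 CPM. Irf8 then had 299, 340 and 328 CPM in the 3 libraries, with replicate 1 lowest (adjusted p = 2.10e-05, exact binomial test). Irf9 had 61.3, 70.6 and 70.1 CPM, again with replicate 1 lowest (adjusted p = 0.0381, exact binomial test). Irf3 no longer differed (adjusted p = 0.121), and Irf2, at 215, 220 and 233 CPM, did not pass (0.0656, both exact). Irf1 and Irf4 were lowest in replicate 3 and Irf5 highest in replicate 2 under both scalings.

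**Figure D3:**
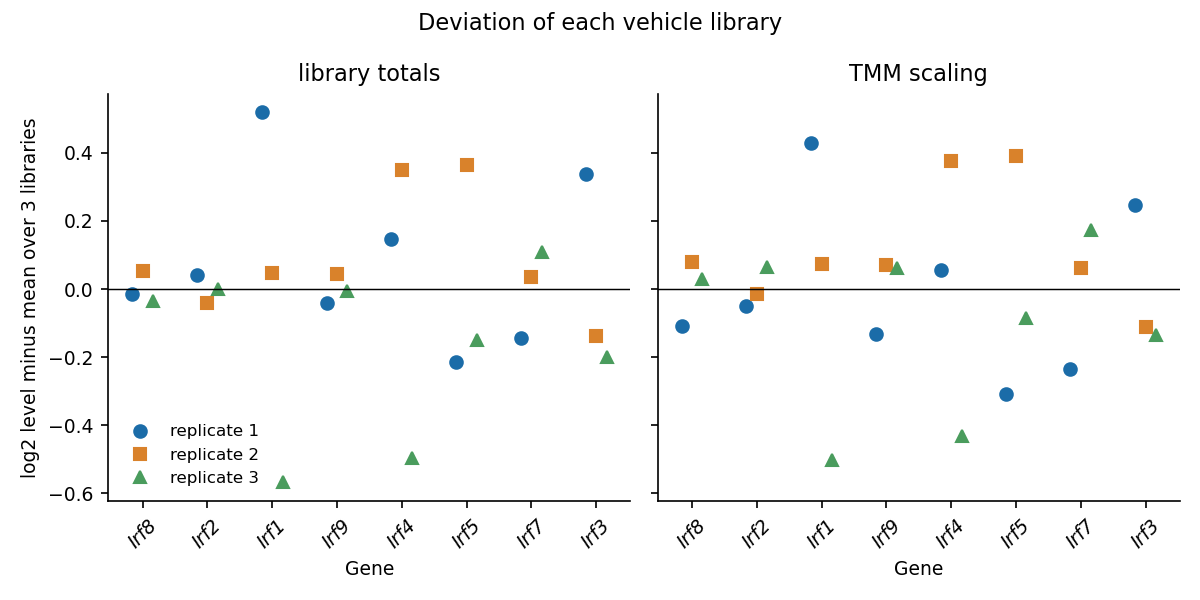
Deviation of each vehicle library from the gene's mean over 3 libraries, in log2 units, on library totals (left) and with TMM scaling (right), 1 point per library. Irf1, Irf4 and Irf5 keep their pattern in both panels. With TMM scaling replicate 1 of Irf8 moves below the other libraries. Replicate 1 of Irf9 is lowest in both panels and lies further below the others with TMM scaling.

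Leaving out a library lowered the number of calls among members and among all genes. Without replicate 1 Irf3 no longer differed (adjusted p = 0.857), without replicate 2 Irf5 did not (0.768), and without replicate 3 Irf4 did not (0.0599, all exact binomial). Irf1 differed whichever library was left out. Each time 3 members differed, where 34.8%, 39.0% and 38.5% of all genes tested did without replicates 1, 2 and 3, against 56.5% with all libraries.

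**Figure D4:**
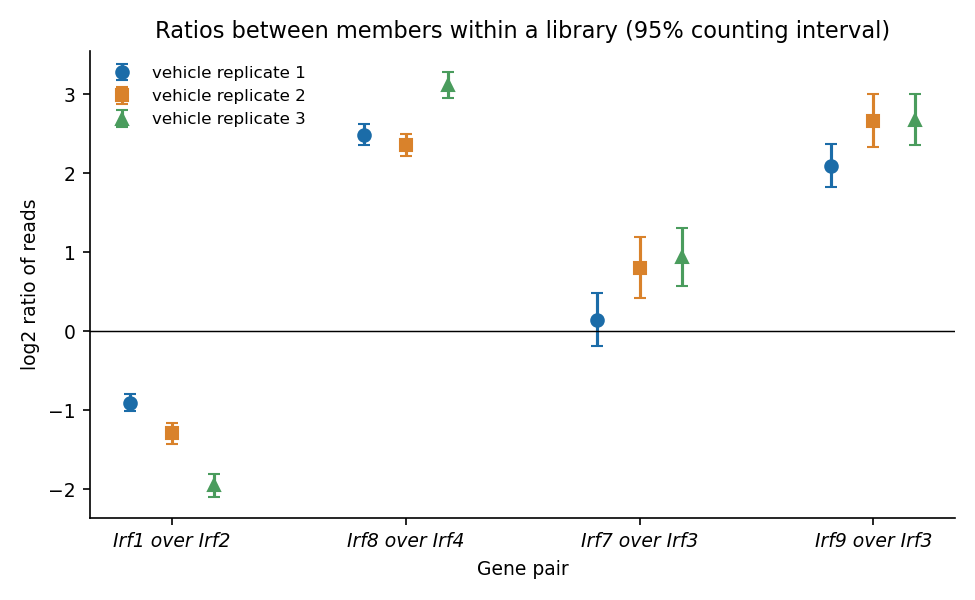
The log2 ratio of reads between 4 pairs of members within each vehicle library, with exact 95% counting intervals. Irf1 over Irf2 differs between all 3 libraries beyond counting error, and Irf8 over Irf4 is higher in replicate 3 than in the others.

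Genes whose pattern over the 3 libraries lay nearest to a member's were sought among 5401 genes with a mean of at least 20 CPM, by Euclidean distance of centred log2(CPM + 1). Nearest to Irf1 were Pfn1, an actin-binding protein gene, at 33.0, 25.3 and 15.7 CPM in replicates 1, 2 and 3, and Atad1 at 50.9, 36.2 and 25.5 CPM, and 4 genes lay within a distance of 0.1. Mnat1 and Ganc were nearest to Irf4, with 16 genes within 0.1, and Btla was nearest to Irf5, with 32. The other members had between 189 and 660 genes as near. The distance was not divided by the spread, so a member with a small spread lies near every gene of small spread. These counts therefore restate in part the spread on library totals.

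Other genes of the interferon pathway were read from 7 lists. Of their 70 genes 62 were tested and 32 differed between libraries, where 56.5% of all genes tested did, and their median CV was 16.0%, beside 17.1% over all genes tested. Without replicate 1, 19 differed, in a comparison that called 34.8% of all genes tested. Kinases, adaptors and sensors upstream of Irf3, Irf5 and Irf7 differed in 6 of 13 cases. Irak1, a kinase of Toll-like receptor signalling, had 87.3, 95.9 and 75.4 CPM in replicates 1, 2 and 3, and its adaptor gene Myd88 51.5, 51.3 and 50.5 CPM. Tbk1, encoding the kinase of IRF3, averaged 17.8 ± 4.95 CPM (SD, n = 3; adjusted p = 0.000134, exact binomial test). Like Irf1 it was highest in replicate 1 and lowest in replicate 3. On library totals 10 of these 13 genes were highest in replicate 1, and with TMM scaling 5 were.

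Receptor, JAK and STAT genes, which lead to ISGF3, differed in 3 of 9 cases, where 56.5% of all genes tested did. Jak1 was the most abundant at 480 ± 31.6 CPM (SD, n = 3), and the receptor genes Ifngr1 and Ifnar2 had 129 ± 2.35 and 116 ± 12.4 CPM. Stat2, which encodes a partner of IRF9 in that complex, had 18.7, 15.5 and 12.7 CPM in replicates 1, 2 and 3. Every library had a higher CPM of Irf9 than of Stat2.

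DNA-binding partners differed in 6 of 6 tested cases, where 56.5% of all genes tested did. Among genes with a mean of at least 10 CPM the share was 65.1%, and so short a list was not tested as a set. Spi1 had 233, 162 and 252 CPM in replicates 1, 2 and 3, lowest where the sum of the neutrophil markers was lowest. All of these markers but Cebpe were lowest in replicate 2. Cebpe was lowest in replicate 1, at 72.6, 87.2 and 90.3 CPM in replicates 1, 2 and 3. The part of neutrophils in the level of Spi1 was not tested. Ikzf1, encoding Ikaros, averaged 281 ± 32.0 CPM (SD, n = 3), and Spib, a relative of Spi1, had 124, 106 and 90.4 CPM in replicates 1, 2 and 3. Batf3, the partner of IRF8 in dendritic cells that take up dead cells, was rare, at 0.982, 2.84 and 2.19 CPM. All 3 genes of IRF2-binding proteins differed, and Irf2bp2, a corepressor gene, had 210, 201 and 173 CPM, a level near that of Irf2.

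Interferon-stimulated genes, the targets of ISGF3 and IRF7, differed in 9 of 17 cases, where 56.5% of all genes tested did. They were mostly low, with a median level of 5.50 CPM. Rsad2, encoding the antiviral enzyme viperin, and the exonuclease gene Isg20 stood out at 288 ± 52.5 and 169 ± 32.6 CPM (SD, n = 3). Isg15 had 29.3, 37.1 and 42.0 CPM in replicates 1, 2 and 3 and Ifit1 5.13, 7.77 and 3.61 CPM. The 9 genes that differed had no common order of the libraries: Rsad2, Isg20 and Isg15 were lowest in replicate 1, whereas Ifit2, Oasl2, Mx2, Ifi44 and Rtp4 were highest there and Ifit1 was highest in replicate 2. With TMM scaling 8 of the 17 genes differed, where 52.0% of all genes tested did. Antigen-processing and guanylate-binding protein genes, several of them known targets of IRF1, differed in 5 of 14 cases. B2m, the light chain of MHC class I, led with 2444 ± 127 CPM. The peptide transporter gene Tap1 had 57.9, 56.0 and 54.9 CPM in replicates 1, 2 and 3. Nlrc5, an activator of MHC class I genes, ranged over 2.08-fold and the caspase gene Casp1 over 1.68-fold. Both had replicate 1 highest and replicate 2 lowest, whereas Irf1 was lowest in replicate 3. Of the other genes of this list that differed, Psmb8 was highest in replicate 1, Tapbp in replicate 3 and B2m in replicate 2.

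Interferon genes themselves were almost without reads. Ifnb1, Ifna1, Ifna2, Ifna4, Ifnl2 and Ifnl3 had 0 reads, which allows up to 0.114 CPM each over all 26410388 reads, counting error only and provided that their reads could be counted. Ifng had 0, 18 and 8 reads in replicates 1, 2 and 3.

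**Figure D5:**
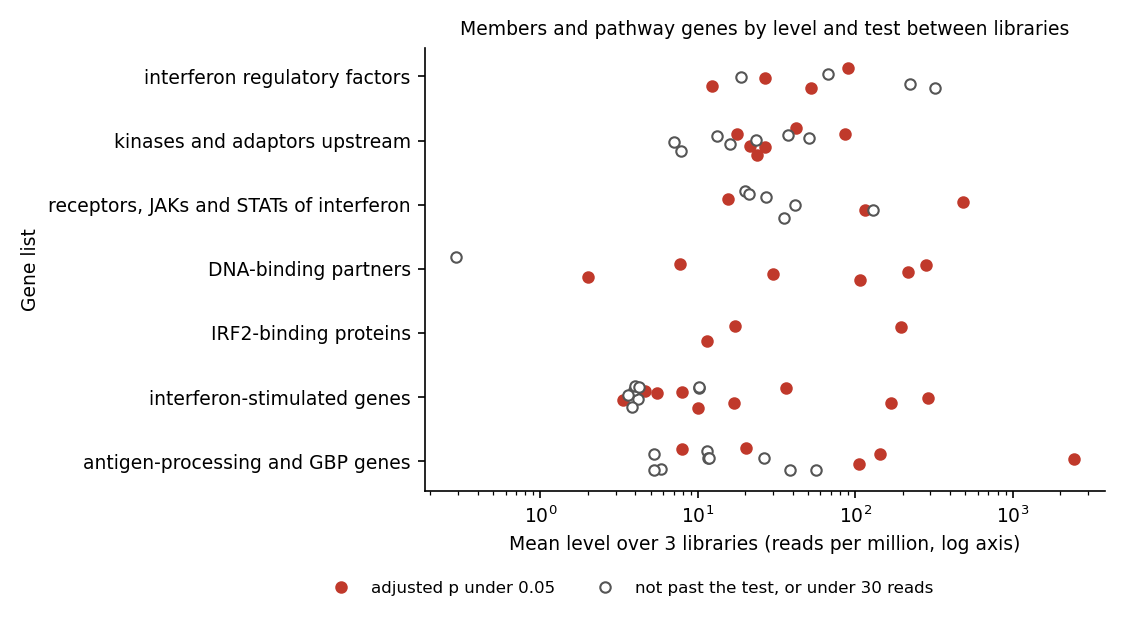
Mean level over 3 vehicle libraries (CPM, log axis) of the 8 members and of the genes of 6 pathway lists, 1 point per gene, filled where the gene differed between libraries at an adjusted p under 0.05. Members span 12.3 to 321 CPM, and most interferon-stimulated genes lie lower, with Rsad2 and Isg20 as the points at the right of their row.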

How the data were processed

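Bone marrow RNA of 3 vehicle libraries was measured, with 500 ng of RNA per library per the labels' protocols. The authors deposited gene symbols with log2 values, which the values themselves show to be log2(x + 1), x being reads per 1000000 of a library size that the authors had scaled. Per the submitters' processing notes, Bowtie2, bedtools and mm10 were used. What the sources used here leave not given are versions, annotation, strand setting and scaling rule. For 100% of values, x was a whole multiple of 1 read's worth (tolerance 1e-06), so reads were recovered, and CPM computed on their totals. The authors' library sizes were 1.12, 1.03 and 1.01 times these totals in replicates 1, 2 and 3.

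The planned input was counts, so the binomial test ran on recovered reads: each library against the others, smallest of 3 p-values times 3, Benjamini-Hochberg over all genes with at least 30 reads. The test was tried on simulated reads that held counting error and set changes in some genes, but no other spread between libraries. Such data cannot show how it behaves where libraries differ beyond counting error, as these do. Exact 95% Clopper-Pearson intervals and the floor of 3 reads (0.327, 0.370 and 0.328 CPM in replicates 1, 2 and 3) cover counting error only. Each pair of libraries differed beyond sampling noise (chi-square per gene of at least 13.1), so none was counted as the same library sequenced again. This value cannot show whether the libraries come from separate mice, since technical spread between preparations would also raise it. Positions are from GENCODE M21 on GRCm38, called mm10 elsewhere, to which 22197 of 23238 symbols matched. TMM trimmed 30% of ratios and 5% of intensities. Python 3.11.15 and scipy 1.17.1 were used. Alternatives covered scaling, read minimum, test, pseudocount, transcript length and leaving out each library. The labels give no batch or date.

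The members and lists were chosen with earlier results of these data known. Named genes are the members, the 4 most abundant genes of each list (given in part) and the 2 nearest genes per member (given in part, for Irf1, Irf4 and Irf5). Tbk1, Stat2, Batf3, Ifit1, Ifit2, Oasl2, Mx2, Ifi44, Nlrc5, Casp1, Cebpe, Prdm1, the interferons beyond Ifng, markers at 0 and overlapping or adjacent genes were named after their values were seen. Some genes are not reported here.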

Additional observations from a re-analysis of the deposited data

How the results depend on the processing

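No paired analysis was possible because the 3 libraries form a single group. The summed level of the family was 1202 CPM with totals that leave out Rn45s and globin genes, against 810 CPM on all reads, by construction of the smaller total. It lay between 770 and 811 CPM with the other scalings and between 793 and 840 CPM without 1 library. The number of members that differed between libraries was 3 to 5 under all 10 alternatives, and it was 3 without any 1 library, where 34.8% to 39.0% of all genes tested differed, against 45.8% to 58.9% under the other alternatives. Of 80 adjusted p-values of single members under these alternatives, 66 kept their side of the threshold, 7 gained a call and 7 lost it. Irf1 was called under 10 of 10 alternatives, Irf4 and Irf5 under 9, Irf3 under 5, Irf8 under 4, Irf9 under 3 and Irf2 and Irf7 under 0, with lowest adjusted p-values of 0.0656 and 0.0577 (exact binomial or chi-square test). The cause of these changes was not tested. Of the pathway genes 19 to 24 differed without 1 library, where 2 libraries are compared in place of 3, against 32 with all. The number of neighbouring pairs without overlap was 5 to 7. Over the leave-one-out fits the log2 ratio of Irf1 to Irf2 lay between -1.62 and -1.10, of Irf8 to Irf4 between 2.42 and 2.80, of Irf7 to Irf3 between 0.47 and 0.87 and of Irf9 to Irf3 between 2.38 and 2.66. The median SD of the members on the log2 scale was 0.20 with a pseudocount of 1 and 0.21 with 0.1. Depth limits Irf3 most, at 89 to 140 reads per library.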
